A study of Homo sapiens with 30 samples.

Results

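Notch signaling was described through 10 genes: the ligands JAG1 and JAG2, the receptors NOTCH1, NOTCH2 and NOTCH3, the hairy and enhancer of split repressors HES1, HES4, HEY1 and HEY2, and the feedback regulator NRARP. All probes carrying one of these gene names on the array were taken, which gave 12 of the 41000 probes for 9 of the 10 genes. NRARP was not found among the gene names on the array and is not analysed here. HES1 had 3 probes, HEY2 had 2, and the other genes had 1 each. For a gene with several probes, the one with both channels well above background on most arrays was its main probe.

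Notch ligands on one cell bind Notch receptors on its neighbor. The receptor is then cut by ADAM proteases and the gamma-secretase complex, and its released intracellular part joins RBPJ and a Mastermind coactivator on DNA. HES and HEY genes are the best known direct targets, and some of them are also known targets of BMP signaling, which acts through SMAD proteins, in other cell types. In the breast, Notch signaling is known for its part in luminal cell fate and in breast cancer.

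The series measured 5 human breast cancer cell lines (HCC1954, MDA-MB-231, MDA-MB-361, T-47D and ZR-75-30) treated with recombinant BMP7 or with vehicle alone. Per the study's methods, the serum content of the medium departed from the recommended conditions in MDA-MB-231 and T-47D. Where these lines are compared with others, line and serum cannot be told apart. RNA was taken after 30 min of treatment or after 1, 3, 6, 12 or 24 h. Each line and time point had 1 two-color array, with vehicle-treated cells in Cy3 and BMP7-treated cells in Cy5, and the cells of 3 cultures had been pooled for each sample. No time point had a replicate and no array had its dyes swapped, so a constant dye bias of a probe is part of its log2 ratio of BMP7 over vehicle, but not of its change with time.

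On each array, both channels of 53.8% to 68.3% of the probes were well above background. Arrays were grouped by scan date into a first and a second scan batch. The second held 6 arrays: HCC1954 at 30 min, MDA-MB-231 and ZR-75-30 at 30 min and 6 h, and T-47D at 3 h. In HCC1954, MDA-MB-231 and ZR-75-30, the first hour thus mixes both scan batches. The array of ZR-75-30 at 6 h stood apart, with 4044 probes changed at least 2-fold against 232 to 2092 on the other arrays. The vehicle channels of T-47D at 3 h and 24 h and of MDA-MB-231 at 6 h were least like the other arrays of their line, with a median Pearson r of 0.929 to 0.943 against 0.961 to 0.994 elsewhere. The epithelial keratins KRT8 and KRT18 and the adhesion gene EPCAM were well above background in the vehicle channel on all 6 arrays of every line. The lines were not alike, though: MDA-MB-231 had the lowest mean vehicle log2 signal of EPCAM (10.39 against 13.89 to 15.58). The same held for the adhesion gene CDH1 (8.11 against 14.64 to 16.80). The mesenchymal gene VIM was at 16.85 in MDA-MB-231 and 14.35 in HCC1954, against 4.90 to 7.74 in the other lines. Of the markers of other cell types, PTPRC (leukocytes) was not well above background on any array, COL3A1 (fibroblasts) was on 1 and PECAM1 (endothelium) on 9 of the 30 arrays in both channels, whereas the probe named CD3E (T cells) was on all 30. The vehicle channel of PECAM1 was well above background on all 6 arrays of HCC1954 (mean 8.76) and on 3 of MDA-MB-231 (mean 4.34). In MDA-MB-361, T-47D and ZR-75-30 it was so on 0 arrays. Treatment was checked with classical BMP targets: from the first hour (30 min and 1 h) to the arrays of 3 to 24 h the log2 ratio rose by 0.85 for ID1 (adjusted p = 0.031, limma), 0.61 for ID2 (adjusted p = 0.031), 0.77 for ID3 (adjusted p = 0.013) and 0.53 for SMAD6 (adjusted p = 0.016), but not for SMAD7 (0.028, adjusted p = 0.93). Without T-47D, without ZR-75-30, without the 12 h arrays or within the first scan batch, 0 of these 4 calls held. By line, the mean log2 ratio was lowest in T-47D for ID1 (0.45), ID2 (0.09) and ID3 (0.12). In the other lines it was at least 0.51, 0.53 and 0.46. SMAD6 averaged 0.26 in T-47D, against 0.12 to 0.97 elsewhere. Fitted within T-47D, the change was 0.45 for ID1, 0.028 for ID2, 0.45 for ID3 and 0.46 for SMAD6, and none was called. A difference between lines in this change was not called by limma for ID2 (adjusted p = 0.88) or ID3 (adjusted p = 0.93).

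The 3 genes that the results below turn on are HES1, the canonical Notch target, HEY2, a related repressor best known from heart and vessel development, and JAG2, the member whose change with time passed the test. RefSeq (GRCh38.p14) gave promoters for 8 of the 9 measured members. HEY1 had no printed promoter. The 250 bases before the start of each of the 3 genes are shown, with matches on either strand in capitals to TGGGAA (the core letters bound by RBPJ), CACGTG and CACGCG (letters bound by HES and HEY repressors) and GGCGCC (a GC element bound by the SMAD proteins of BMP signaling). HES1 lies on the plus strand (chr3:194135898-194136147), HEY2 on the plus strand (chr6:125749382-125749631) and JAG2 on the minus strand (chr14:105168777-105169026).
HES1: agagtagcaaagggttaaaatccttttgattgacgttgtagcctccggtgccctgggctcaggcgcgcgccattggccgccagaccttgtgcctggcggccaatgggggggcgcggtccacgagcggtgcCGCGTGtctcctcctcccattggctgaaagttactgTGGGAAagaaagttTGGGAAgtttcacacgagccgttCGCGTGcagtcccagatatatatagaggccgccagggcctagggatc
HEY2: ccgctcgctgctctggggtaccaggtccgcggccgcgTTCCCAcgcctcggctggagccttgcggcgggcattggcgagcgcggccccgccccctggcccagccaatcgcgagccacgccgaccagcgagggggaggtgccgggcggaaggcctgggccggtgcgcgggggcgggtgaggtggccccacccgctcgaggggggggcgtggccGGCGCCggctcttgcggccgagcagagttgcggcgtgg
JAG2: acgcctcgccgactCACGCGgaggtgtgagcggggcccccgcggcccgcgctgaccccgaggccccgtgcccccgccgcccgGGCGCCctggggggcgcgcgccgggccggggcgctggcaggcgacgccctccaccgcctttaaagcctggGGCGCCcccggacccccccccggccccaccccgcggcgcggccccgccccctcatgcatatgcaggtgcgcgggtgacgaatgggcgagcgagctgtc

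In HES1, 2 matches to TGGGAA began 84 and 70 bases before the start, with CACGCG matches beginning 120 and 47 bases before it. In HEY2, TGGGAA was matched 213 bases and GGCGCC 38 bases before the start. In JAG2, GGCGCC was matched at 168 and 98 bases and CACGCG at 236 bases before the start, and TGGGAA was not. Over the 8 members, TGGGAA was found in 3 windows (HES1, HES4 and HEY2), GGCGCC in 3 (HEY2, JAG2 and NOTCH1), CACGCG in 2 and CACGTG in 0. Of 27305 windows of the same length, 21.1% held TGGGAA, 16.1% GGCGCC, 9.62% CACGCG and 6.49% CACGTG. A match is a description of the letters and was not tested for binding.

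The lines differed in the level of the Notch genes without BMP7. The vehicle level is the log2 signal of the Cy3 channel after normalization between arrays, and the 6 arrays of a line stood in for repeats in a limma fit with slide as a random block. It compares 1 probe between lines only, and it is open to dye bias. All 9 main probes differed between lines at an adjusted p under 0.05, in a table where 68.7% of all probes did so. By pair of lines, the share of all probes called was 37% for HCC1954 and MDA-MB-231, 42% for HCC1954 and MDA-MB-361, 39.6% for HCC1954 and T-47D, 36.8% for HCC1954 and ZR-75-30, 45.2% for MDA-MB-231 against either MDA-MB-361 or T-47D, 45.8% for MDA-MB-231 and ZR-75-30, 40.3% for MDA-MB-361 and T-47D, 36.7% for MDA-MB-361 and ZR-75-30, and 41.9% for T-47D and ZR-75-30. Since cells were assayed in bulk, fewer expressing cells and less RNA per cell cannot be told apart.

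JAG1 and JAG2, the ligands, had unlike profiles over the lines. The vehicle level of JAG1 ran from 11.65 to 12.77 in HCC1954 (median 12.14) and from 10.36 to 11.62 in MDA-MB-231 (median 10.96). It ran from 7.19 to 8.25 in ZR-75-30 (median 7.39) and from 6.79 to 7.27 in MDA-MB-361 (median 6.98). T-47D, with 2.25 to 4.93 (median 4.40), was lowest. It lay below all others without overlap, and its vehicle channel was well above background on 2 of 6 arrays. HCC1954 exceeded ZR-75-30 by 4.55 on the log2 scale (SE 0.39, 23.4-fold, adjusted p = 1.4e-10), while ZR-75-30 and MDA-MB-361 did not pass the test against each other (0.59, SE 0.41, adjusted p = 0.32).

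JAG2 was lowest in MDA-MB-231, where JAG1 was high. Its vehicle level ran from 6.42 to 7.25 there (median 6.80) and from 8.29 to 9.11 in MDA-MB-361 (median 8.94). It ran from 9.48 to 9.88 in ZR-75-30 (median 9.77), from 9.77 to 10.51 in HCC1954 (median 9.88) and from 9.52 to 10.81 in T-47D (median 10.28). MDA-MB-231 and MDA-MB-361 did not overlap with each other or with the other lines, and T-47D exceeded MDA-MB-231 by 3.36 (SE 0.22, 10.3-fold, adjusted p = 1.0e-13), or by 2.64 with normexp correction, loess and Aquantile (adjusted p = 2.1e-13). Neighbors among the 3 upper lines, T-47D against HCC1954 (0.24, adjusted p = 0.44) and HCC1954 against ZR-75-30 (0.29, adjusted p = 0.35), did not pass. The ends of these 3 lines, T-47D against ZR-75-30, passed barely (0.53, 1.44-fold, adjusted p = 0.049998).

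Among the receptors, NOTCH2 had the smallest spread between lines and NOTCH1 a wider one. NOTCH2 averaged 13.68 ± 0.34 (SD, n = 6 arrays) in ZR-75-30, 13.48 ± 0.19 in MDA-MB-231, 13.03 ± 0.25 in T-47D, 12.92 ± 0.21 in HCC1954 and 12.78 ± 0.18 in MDA-MB-361. The largest of these differences was 0.88 (SE 0.17, 1.84-fold, adjusted p = 1.4e-04), and of the 4 neighboring steps only that from MDA-MB-231 to T-47D passed (0.54, SE 0.17, adjusted p = 0.0084). NOTCH1 averaged 7.99 ± 0.42 in HCC1954, 7.01 ± 0.48 in ZR-75-30, 6.83 ± 0.47 in MDA-MB-231, 5.73 ± 0.66 in T-47D and 5.05 ± 0.31 in MDA-MB-361. HCC1954 exceeded MDA-MB-361 by 2.88 (SE 0.32, 7.38-fold, adjusted p = 1.4e-08), and by 1.52 with normexp correction, loess and Aquantile (adjusted p = 1.3e-08). The steps from ZR-75-30 to MDA-MB-231 (0.17, adjusted p = 0.68) and from T-47D to MDA-MB-361 (0.63, adjusted p = 0.13) did not pass, and in T-47D the vehicle channel was well above background on 4 of 6 arrays.

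NOTCH3 was dim. Its vehicle channel was well above background on 5 of 6 arrays in T-47D, 3 in MDA-MB-361, 2 in ZR-75-30 and 0 in HCC1954 and MDA-MB-231. The level in T-47D was at least 2.22-fold that of HCC1954 (adjusted p = 0.011) and at least 2.27-fold that of MDA-MB-231 (adjusted p = 5.9e-06), bounds that set the brighter line against the lowest signal well above background on each array of the dimmer line, or the probe's own where higher. They hold for this normalization: with normexp correction, loess and Aquantile, T-47D exceeded MDA-MB-231 by 0.59 on the log2 scale (adjusted p = 1.4e-05), which is under the bound, and without the 3 arrays whose vehicle channel stood apart by 1.63 (adjusted p = 4.0e-04), against 2.35 measured with all arrays.

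Among the repressor genes, HES1 and HES4 were well above background on every array, HEY1 on some arrays of every line, and HEY2 in 3 of the 5 lines. HES1 averaged 13.02 ± 0.20 in ZR-75-30, 12.92 ± 0.33 in HCC1954, 12.66 ± 0.68 in MDA-MB-361 and 12.26 ± 0.62 in T-47D, and was lowest in MDA-MB-231 with 11.02 ± 0.42. HES4 averaged 12.29 ± 0.75 in T-47D, 12.23 ± 0.46 in ZR-75-30, 11.93 ± 0.17 in MDA-MB-361, 11.48 ± 0.49 in HCC1954 and 10.47 ± 0.40 in MDA-MB-231. For both genes MDA-MB-231 was lowest. HES1 was 3.81-fold higher in ZR-75-30 (adjusted p = 1.9e-06) and HES4 was 3.95-fold higher in T-47D (adjusted p = 3.2e-06), as the ends of each order. Between neighbors, the step down to MDA-MB-231 passed, 2.23-fold from T-47D for HES1 (adjusted p = 0.0041) and 2.18-fold from HCC1954 for HES4 (adjusted p = 0.0039), and the other 3 steps of each gene did not. For HES1 this holds for the main probe. From T-47D to MDA-MB-231, its probe A_24_P938293 gave 2.19-fold (adjusted p = 0.00058). Its probe A_23_P6596 gave 1.53-fold and did not pass (adjusted p = 0.28). These probes also had ZR-75-30 above T-47D, by 1.85-fold (adjusted p = 0.0064) and 3.21-fold (adjusted p = 0.0027). Without MDA-MB-231, the comparison between lines by main probe lost HES1 (adjusted p = 0.20), HES4 (adjusted p = 0.12) and NOTCH3 (adjusted p = 0.056). So 6 of 9 members were called, where 63.9% of all probes were.

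HEY1 ran from 8.18 to 8.87 in MDA-MB-361 (median 8.41), from 7.22 to 7.47 in HCC1954 (median 7.42) and from 6.57 to 7.58 in ZR-75-30 (median 7.05). It ran from 4.71 to 6.08 in MDA-MB-231 (median 5.60) and from 3.33 to 6.31 in T-47D (median 5.75), the widest range of any line. MDA-MB-361 lay above all other lines without overlap, although its step to HCC1954 missed the threshold (1.09, SE 0.47, adjusted p = 0.064). It exceeded T-47D by 3.29 (SE 0.47, 9.76-fold, adjusted p = 1.4e-06), by 2.48 without the 3 arrays whose vehicle channel stood apart (adjusted p = 7.1e-08), and by 1.68 with normexp correction, loess and Aquantile (adjusted p = 9.9e-10).
HEY2, like NOTCH3, gave no vehicle signal well above background in HCC1954 and MDA-MB-231. Its vehicle level ran from 8.65 to 10.45 in MDA-MB-361 (median 9.94), from 5.84 to 7.18 in T-47D (median 6.84) and from 4.65 to 6.41 in ZR-75-30 (median 5.97). It was not well above background on any array of HCC1954 (2.51 to 2.62) or MDA-MB-231 (2.43 to 2.73). MDA-MB-361 was at least 47.4-fold above HCC1954 (adjusted p = 7.3e-16) and at least 44.8-fold above MDA-MB-231 (adjusted p = 3.6e-16), and it was 9.14-fold above T-47D (adjusted p = 3.4e-08). These bounds hold for this normalization: with normexp correction (offset 50), loess and Aquantile, the difference from MDA-MB-231 was 3.71 on the log2 scale (adjusted p = 1.7e-13). The second HEY2 probe gave the same order for the top line (6.74 to 8.15 in MDA-MB-361) and was likewise not well above background in HCC1954 and MDA-MB-231.

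**Figure D1:**
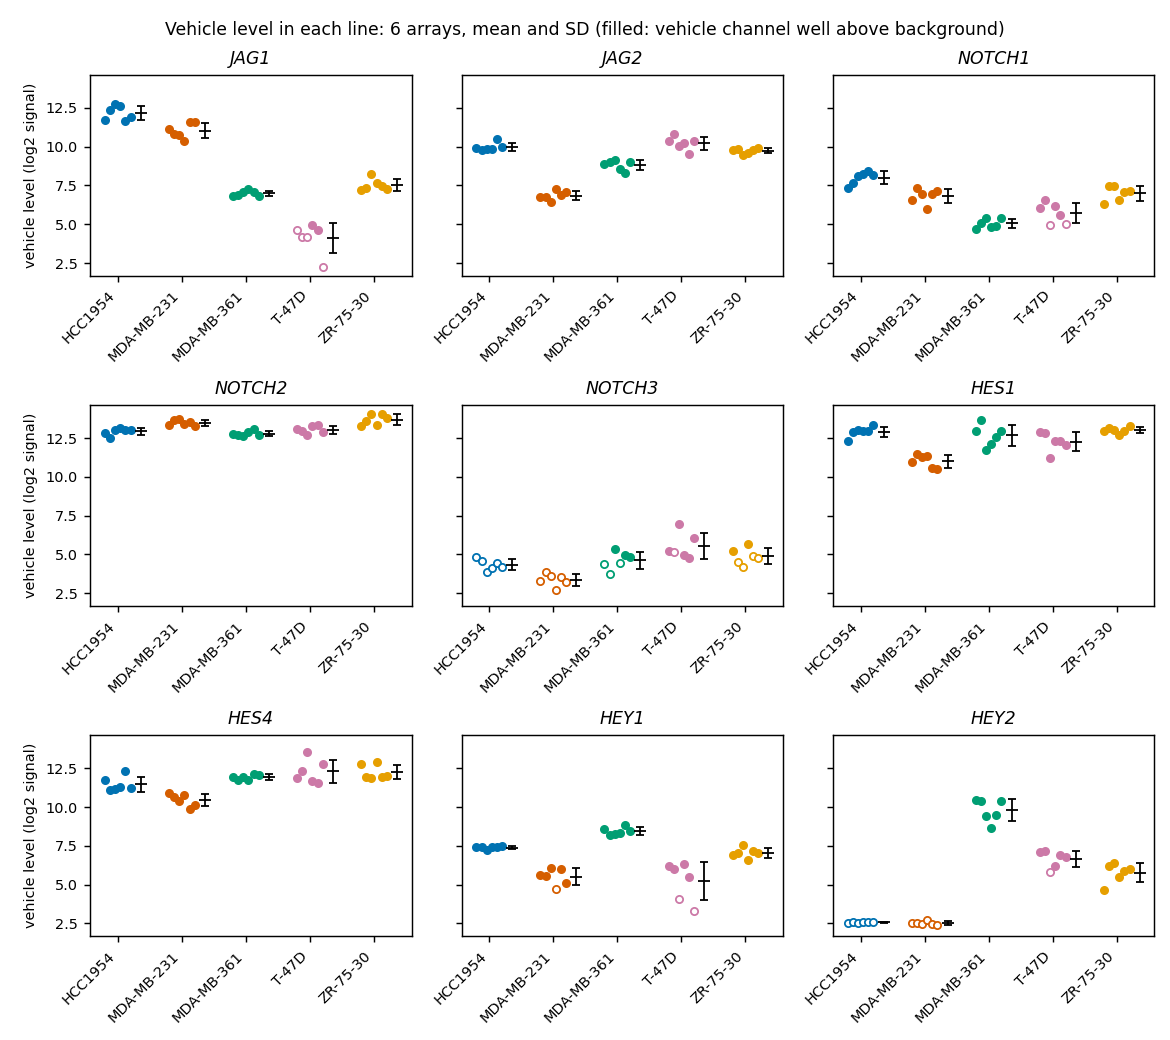
Vehicle level of the main probe of each member (y axis, log2 Cy3 signal) in 5 lines (x axis), 1 point per array with the mean and SD of 6 arrays in black, open where the vehicle signal was not well above background. JAG1 lies highest in HCC1954 and lowest in T-47D, HEY2 is seen in MDA-MB-361, T-47D and ZR-75-30, and NOTCH2 sits between 12.53 and 14.06 on every array.

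Vehicle levels at 12 and 24 h were also set against the first hour within lines, as a check on drift in culture. None of the 9 members was called by limma, 0 of them had an unadjusted p under 0.05 (9.81% of all probes), and 0.00732% of all probes were called.

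The response to BMP7 was read as the log2 ratio of BMP7 over vehicle. Averaged over time points and then over the 5 lines, no member was called by limma, against 0.00976% of all probes, and 4 of the 9 had an unadjusted p under 0.05, as did 15.4% of all probes. These were HEY1 with a mean log2 ratio of 0.38 (SE 0.14, above 0 in 5 of 5 lines, adjusted p = 0.31), JAG2 with 0.22 (SE 0.066, 4 of 5 lines, adjusted p = 0.23), HES1 with 0.11 (SE 0.022, 5 of 5 lines, adjusted p = 0.14) and NOTCH3 with -0.19 (SE 0.049, below 0 in 5 of 5 lines, adjusted p = 0.19). The NOTCH3 probe had both channels well above background on only 7 arrays, and on 0 arrays of HCC1954 and of MDA-MB-231. The HES1 value is that of its main probe. Its probe A_24_P938293 gave 0.083 (SE 0.076, above 0 in 3 of 5 lines, adjusted p = 0.67). Its probe A_23_P6596 gave 0.13 (SE 0.050, above 0 in 4 of 5 lines, adjusted p = 0.33). NOTCH1 averaged 0.25 (SE 0.13, adjusted p = 0.44), and HES4, HEY2, JAG1 and NOTCH2 averaged between -0.032 and 0.027. The HEY2 mean includes 12 arrays of HCC1954 and MDA-MB-231 with a ratio of exactly 0, where the probe had no signal. The JAG1 mean includes T-47D, where both channels were well above background on 0 arrays. The median of the 9 members was 0.027, beside -0.00045 over all probes.

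From the first hour to 3 to 24 h, JAG2 was the member that passed the test. Its log2 ratio rose by 0.33 (SE 0.086, 1.26-fold, adjusted p = 0.044, limma with line as a block), in 4 of 5 lines. This is 1 of 9 members, in a table where 2.44% of all probes were called and 1.43% were called upward. The call is marginal: it was lost without HCC1954 (adjusted p = 0.091), MDA-MB-231 (0.092), T-47D (0.25) or ZR-75-30 (0.26), with the scan batch as a term (0.29 on the log2 scale, adjusted p = 0.058) and within the first scan batch (0.30, adjusted p = 0.25). With normexp background correction and median scaling the change was 0.038 (adjusted p = 0.84).

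The arrays behind it were as follows. In T-47D the log2 ratio of JAG2 was, in order of time from 30 min to 24 h, -0.02, -0.41, 0.10, 0.43, 0.59 and 0.63. In ZR-75-30 it was -0.23, 0.17, 0.56, 0.05, 0.61 and 0.27, and in MDA-MB-231 it was 0.01, 0.09, 0.22, 0.21, 0.63 and 0.53. Late and early arrays did not overlap in T-47D and MDA-MB-231, and they did in ZR-75-30. In HCC1954 the ratio was -0.43 at 30 min, -0.01 at 1 h and between -0.02 and 0.13 later. In MDA-MB-361 it was between 0.27 and 0.71 on all 6 arrays, already 0.48 at 30 min, with a change of -0.04 (SE 0.18). Over the 5 lines the mean was -0.036 ± 0.34 (SD) at 30 min and 0.53 ± 0.24 at 12 h, when all 5 lines were above 0, and both channels were well above background on all 30 arrays.

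The other members did not pass this test. HES4 came nearest, with a change of 0.27 (SE 0.078, in the same direction in 5 of 5 lines, adjusted p = 0.060). The mean of HES4 over lines was -0.26 ± 0.21 at 30 min, when all 5 lines were below 0, and 0.16 ± 0.28 at 6 h. The change was called where a filter kept probes well above background in both channels (adjusted p = 0.039) and without the 3 arrays whose vehicle channel stood apart (adjusted p = 0.034). Over 22 settings it passed in 3, with changes from 0.011 to 0.31 and adjusted p up to 0.96. Leaving out any 1 line, it was not called (adjusted p of 0.080 to 0.34). NOTCH2 had a change of -0.22 (SE 0.087, below 0 in 5 of 5 lines, adjusted p = 0.15) and JAG1 of -0.22 (SE 0.12, below 0 in 4 of 5 lines, adjusted p = 0.31). HEY1 had a change of 0.38 (SE 0.19, adjusted p = 0.29), NOTCH1 of 0.23 (SE 0.13, adjusted p = 0.37), and HES1, HEY2 and NOTCH3 of -0.068, -0.077 and 0.033. The HEY2 change again includes the 12 arrays without signal, at exactly 0. The median over the 9 members was 0.033, beside 0 over all probes.

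**Figure D2:**
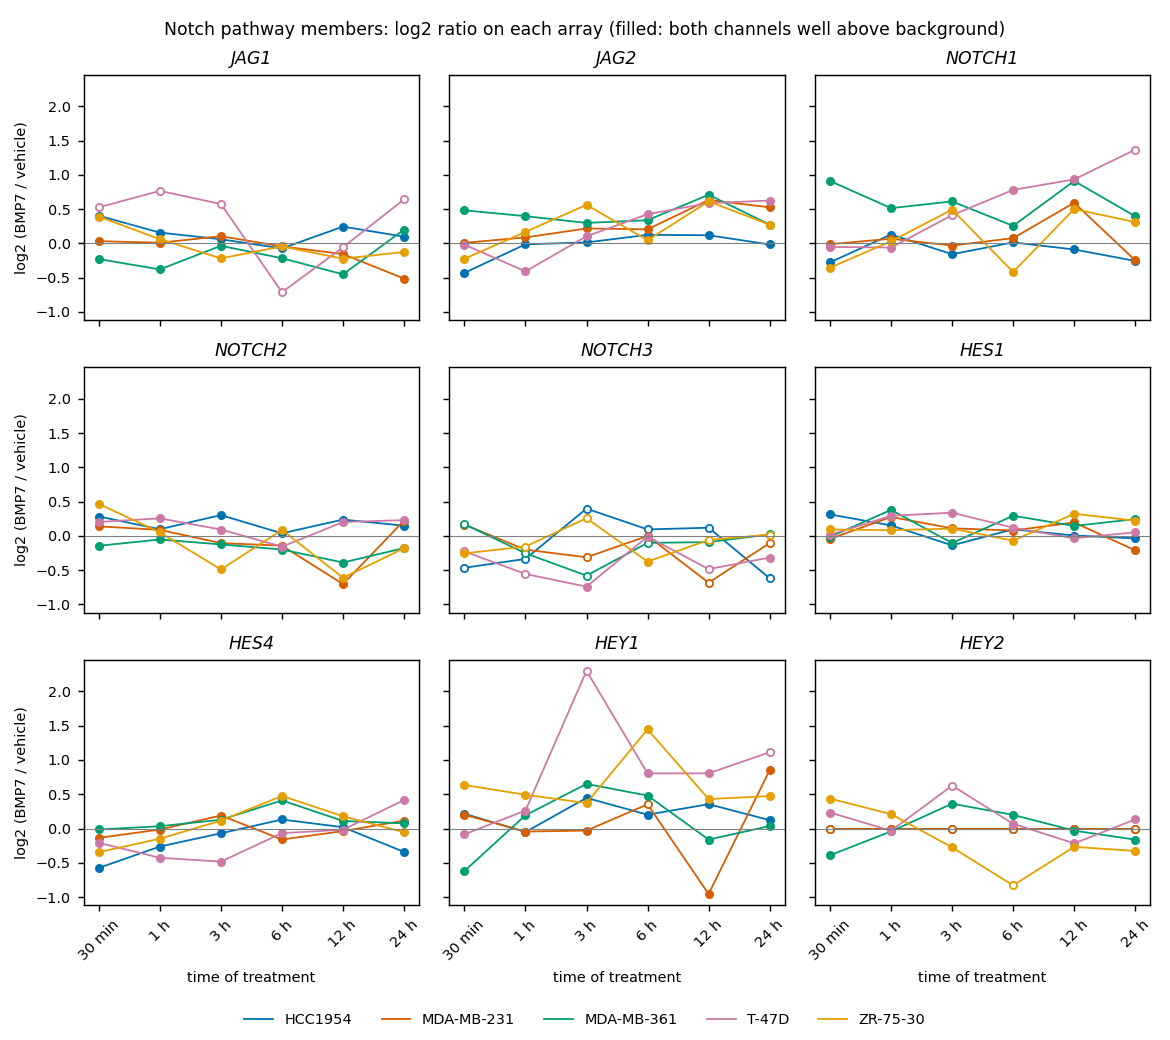
Log2 ratio of BMP7 over vehicle (y axis) by time of treatment (x axis, unequal steps) for the main probe of each member, 1 line per cell line and 1 array per point, open where a channel was not well above background. JAG2 rises toward 12 h (mean 0.53), HES1 stays between -0.21 and 0.38, HEY1 reaches 2.30 at an open point of T-47D at 3 h, and the HCC1954 points of HEY2 lie under those of MDA-MB-231 at 0.

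HES1 hardly moved. Its main probe ran from -0.21 to 0.38 over the 30 arrays, with a median of 0.10 and both channels well above background on all of them. The mean of a line lay between 0.067 (HCC1954) and 0.16 (MDA-MB-361). At 1 h, the time of the highest value, it ran from 0.08 in ZR-75-30 to 0.38 in MDA-MB-361.
The 3 HES1 probes agreed on the vehicle level (Pearson r of 0.895, 0.851 and 0.748 over 30 arrays, which share lines) but little on the ratio (r of 0.14, 0.14 and -0.15). The probe A_24_P938293, well above background on all arrays, had ratios of 0.01, 0.27, 0.01, -0.40, -0.58 and -0.40 in T-47D in order of time, where the main probe had 0.02, 0.29, 0.34, 0.12, -0.03 and 0.05. Its change in T-47D was -0.48 (SE 0.11, adjusted p = 0.057), against -0.036 (SE 0.14, adjusted p = 1) for the main probe. On hg18, the build of the array annotation, the probes lie at chr3:195336738-195336797 and chr3:195338870-195338929, so they read different stretches of the gene.

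**Figure D3:**
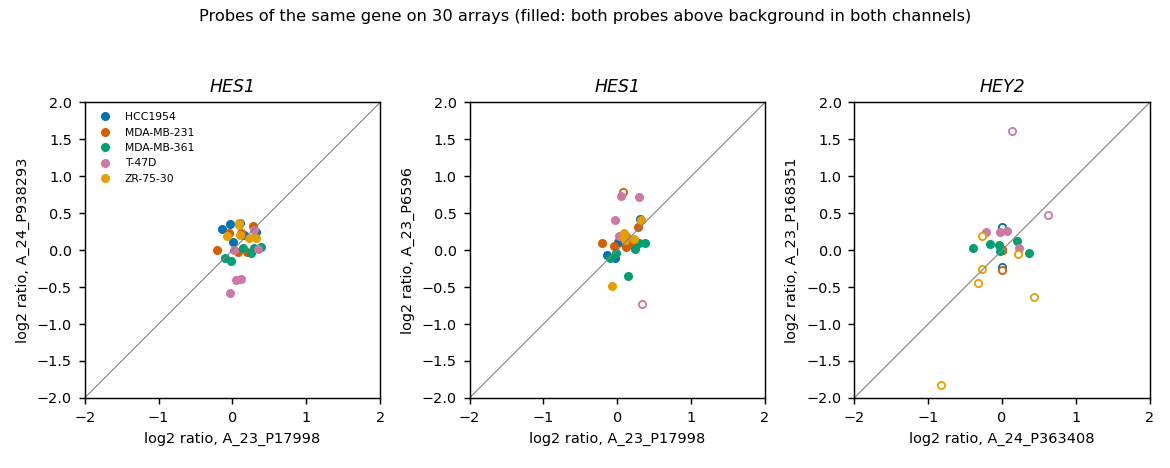
Log2 ratio of BMP7 over vehicle from probes of the same gene, with the main probe on the x axis and another probe on the y axis, 1 point per array colored by line, the diagonal marking equal values. The T-47D arrays at 6, 12 and 24 h lie well under the diagonal for the first HES1 pair (-0.40, -0.58 and -0.40), and 2 dim arrays of HEY2 lie farthest out (1.61 and -1.83).

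Changes of at least 2-fold on a single array were few. Of 270 values of main probes, 4 were up and 0 were down, where 1.87% of all values in the table, 0.908% up and 0.957% down, were such changes. With both channels well above background, 1 of the 4 was left, beside 0.794% of all such values up or down.
That one was HEY1 in ZR-75-30 at 6 h, with a log2 ratio of 1.45, on the array where 9.87% of all probes changed at least 2-fold. On the other ZR-75-30 arrays HEY1 was between 0.37 and 0.64, so the 6 arrays were all above 0. In T-47D HEY1 was, in order of time, at -0.09, 0.26, 2.30, 0.80, 0.81 and 1.11. The values at 3 h and at 24 h were the other 2 events of HEY1, on arrays where 3.17% and 5.1% of all probes changed at least 2-fold. On both arrays the vehicle channel was not well above background and was among those least like the other T-47D arrays, whereas 6 h and 12 h were measured in both channels.

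NOTCH1, the remaining event, was at 1.37 in T-47D at 24 h, again with the vehicle channel not well above background. In order of time it was at -0.05, -0.06, 0.41, 0.78, 0.93 and 1.37 in T-47D, with early and late arrays apart. In MDA-MB-361 it was at 0.91, 0.52, 0.61, 0.26, 0.91 and 0.40, above 0 from 30 min on. The NOTCH1 probe is printed on 10 spots, less those marked as outliers, which gives an error within an array. The SD of the log2 ratio over spots had a median of 0.12 over the 30 arrays, was 0.11 at 6 h and 0.18 at 12 h in T-47D, and was 0.65 at 3 h and 0.49 at 24 h there. Spots of 1 array share its samples and hybridization, so this error leaves out the spread between cultures.

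The change from the first hour to 3 to 24 h was then fitted within each line. No member differed between lines by limma, 1 of 9 had an unadjusted p under 0.05 (6.29% of all probes), and 0.0537% of all probes were called. That one was HEY2 (adjusted p = 0.39). In the fits of single lines, 1 member was called in ZR-75-30, where 4.24% of all probes were called and 1.74% were called downward, and 0 of 9 were called in T-47D (0.603% of all probes), MDA-MB-361 (0.0561%), MDA-MB-231 (0.0244%) and HCC1954 (0.0146%). The members with an unadjusted p under 0.05 numbered 4 in T-47D (14.2% of all probes), 4 in ZR-75-30 (18.4%) and 0 in MDA-MB-361 (3.45%), MDA-MB-231 (3.17%) and HCC1954 (2.79%), beside shares over all probes that were also higher in T-47D and ZR-75-30.

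HEY2 was the member called in ZR-75-30, where its log2 ratio fell by 0.75 (SE 0.18, adjusted p = 0.019). In order of time the arrays read 0.44, 0.21, -0.28, -0.83, -0.27 and -0.33, so that early and late arrays did not overlap. The 6 h value had a channel that was not well above background, and without that array the change was -0.61 (adjusted p = 0.035). The log2 ratio of this probe was exactly 0 on the 12 arrays of HCC1954 and MDA-MB-231, where it had no signal, and these arrays entered the estimate of the spread. Fitted on the 3 lines with a signal, the change was not called (SE 0.23, adjusted p = 0.11), nor was it within the first scan batch (-0.50, adjusted p = 0.22) or with normexp correction and loess (-0.32, adjusted p = 0.12). The second HEY2 probe, with both channels well above background on 0 ZR-75-30 arrays, gave -0.25 (SE 0.38, adjusted p = 0.87).

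In T-47D the largest changes were in HEY1, NOTCH1, JAG2 and JAG1, and 0 of these passed the test. The change was 1.17 for HEY1 (SE 0.42, adjusted p = 0.19), 0.93 for NOTCH1 (SE 0.26, adjusted p = 0.095) and 0.65 for JAG2 (SE 0.18, adjusted p = 0.092). JAG1, not well above background in both channels on any T-47D array, had -0.53 (SE 0.26, adjusted p = 0.35). Without the 3 h and 24 h arrays of T-47D and the 6 h array of MDA-MB-231, HEY1 was at 0.72 (adjusted p = 0.42), NOTCH1 at 0.91 (adjusted p = 0.096) and JAG2 at 0.72 (adjusted p = 0.063). With normexp correction and loess, HEY1 was at 0.17 and NOTCH1 at 0.25, while JAG2 was at 0.64. With the scan batch as a term, JAG2 was called at 0.73 (adjusted p = 0.011) and NOTCH1 at 1.03 (adjusted p = 0.018), and within the first scan batch at 0.76 (adjusted p = 0.011) and 1.08 (adjusted p = 0.014). NOTCH1 was also called with at least 1 channel well above background (1.08, adjusted p = 0.028) and without the ZR-75-30 array at 6 h (0.93, adjusted p = 0.044). Over 17 settings each, JAG2 passed in 2, NOTCH1 in 4 and HEY1 in 0.

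**Figure D4:**
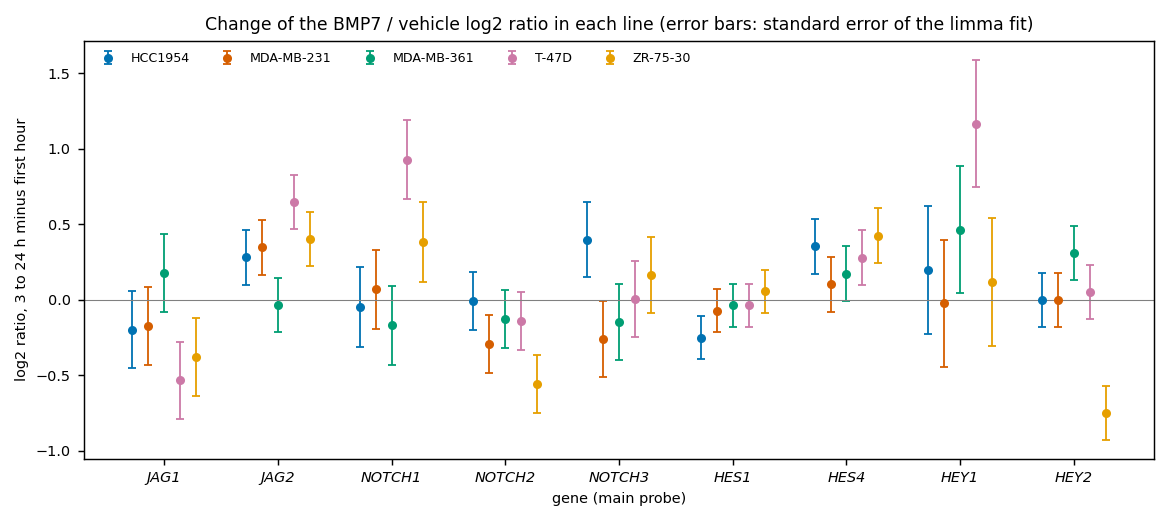
Change of the log2 ratio of BMP7 over vehicle from the first hour to 3 to 24 h (y axis) for each member (x axis) in each line, as estimate and standard error of the limma fit. The T-47D points of HEY1 (1.17), NOTCH1 (0.93) and JAG2 (0.65) lie highest and the ZR-75-30 point of HEY2 (-0.75) lowest.

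Across the 30 arrays, which share 5 lines, the log2 ratios of JAG2 and NOTCH1 had a Pearson r of 0.76 and those of JAG2 and HES4 of 0.64, the highest among pairs of members. The lowest were JAG2 with NOTCH2 (-0.66) and JAG1 with JAG2 (-0.63). The probes most like each member were then sought among 20657 to 20660 probes with both channels well above background on at least 24 arrays. NOTCH1 was most like NAP1L4 (r = 0.967), ITGB5 (0.953) and IGF2R (0.949), JAG2 most like KIAA2013 (0.949), M-RIP (0.942) and MICA (0.941), and NOTCH2 most like SLTM (0.927), SENP1 (0.922) and WRN (0.897). The closest was LOC442256 for HES4 (0.885), ZNF160 for HEY1 (0.861), DNAJB4 for JAG1 (0.808) and RNF152 for HEY2 (0.749). HES1 had no close match (TFAP2C, 0.616), nor had NOTCH3 (MMP25, 0.612). The filter on signal was set on the compared probes and not on the members. HEY2 had a ratio of exactly 0 on 12 arrays, and NOTCH3 had both channels well above background on only 7. How far their r values depend on such arrays was not tested.

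Of 40 further genes of the pathway, 38 had a probe. They covered the DLL ligands, NOTCH4, the ADAM proteases, gamma-secretase, the fringe enzymes, the endocytic and ubiquitin regulators, RBPJ with its coactivators, and other HES and HEY genes. The probe of MAML3, a Mastermind coactivator, was not well above background in both channels on any array, and 24 of the 38 were so on all 30. In the vehicle channel, 34 of 38 differed between lines, beside 68.7% of all probes.
The differences included DLL1, a Delta ligand, with a mean of 10.66 in MDA-MB-361 against 4.28 in MDA-MB-231 (adjusted p = 1.0e-16). They also included LFNG, a fringe enzyme that modifies Notch receptors, with 12.45 in MDA-MB-361 against 8.47 in HCC1954 (adjusted p = 8.6e-12), and HEYL, a HEY family repressor, with 6.70 in MDA-MB-231 against 2.59, not well above background, in HCC1954 (adjusted p = 4.8e-10). DLL3 (7.92), DTX4 (6.77) and MAML2 (6.62) were highest in HCC1954, and NEURL1, a ubiquitin ligase for Notch ligands, was highest in MDA-MB-231 (8.68).

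In the response to BMP7, none of the 38 was called in the mean log2 ratio by limma, with 9 at an unadjusted p under 0.05, as were 15.4% of all probes. In the change to 3 to 24 h, 1 was called, where 2.44% of all probes were. That one was HES6, a HES family member known to oppose HES1, with a rise of 0.36 (SE 0.078, adjusted p = 0.035), lost without ZR-75-30 (0.24, adjusted p = 0.26), T-47D (0.31, adjusted p = 0.21), MDA-MB-231 (0.37, adjusted p = 0.060) or HCC1954 (0.38, adjusted p = 0.052). The median change of the 38 was -0.014, beside 0 over all probes. In ZR-75-30, 3 of 38 were called, beside 4.24% of all probes. HES6 rose there by 0.81 (SE 0.12, adjusted p = 0.0012) and HES7 by 1.86 (SE 0.35, adjusted p = 0.0041), and ADAM10, which cuts Notch receptors, fell by 0.67 (SE 0.11, adjusted p = 0.0017). The HES7 probe had a vehicle level of 14.30 in ZR-75-30 to 16.21 in T-47D, and whether it reads HES7 alone was not tested. Within the first scan batch, which leaves out the 30 min and 6 h arrays of ZR-75-30, these values were 0.67 (adjusted p = 0.063), 1.45 (adjusted p = 0.21) and -0.58 (adjusted p = 0.086). None of the 38 was called in the other 4 lines. Those with an unadjusted p under 0.05 numbered 8 for T-47D (14.2% of all probes), 5 for MDA-MB-231 (3.17%), 1 for HCC1954 (2.79%) and 0 for MDA-MB-361 (3.45%). None was called for a difference between lines, with 6 at an unadjusted p under 0.05 (6.29% of all probes).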

How the data were processed

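Gene expression was measured on 30 two-color Agilent whole human genome arrays, 1 for each of 5 cell lines at 6 time points. Per the file headers, Feature Extraction 9.5.1.1 corrected the background, normalized the dyes and gave the deposited log10 ratio of Cy5 (BMP7) over Cy3 (vehicle) with the deposited intensity of each channel. A value table of log2 ratios, deposited by the authors as well, was used as an alternative. The deposited p-values of single spots were not used.

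Log10 ratios were changed to log2, control and outlier-flagged spots left out, spots of a probe averaged and each array set to a median of 0. Vehicle levels came from the processed intensities after Aquantile normalization. Tests used limma 3.58.1 in R 4.3.3 across all 41000 probes with Benjamini-Hochberg adjustment at 0.05: the mean ratio over lines, the change to 3 to 24 h with line as a block, that change by line, and vehicle levels with slide as a random block. The slide correlation was estimated on every 8th probe. Fits were tested on simulated data. Nothing says that the arrays of a line are independent cultures beyond their time point, so p-values measure the spread between these arrays. The number of arrays limits the precision. The members, gene lists and rules were chosen with earlier results of these data known. Other pathway genes were named when past the threshold, at most 10 per test by size, or when never well above background. The 3 probes of other genes with the highest Pearson r, on at least 24 arrays well above background, counted as most alike.

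Alternatives were normexp correction (offset 50) with loess or median scaling, the matrix, no median shift, outlier spots kept, filters on signal above background, scan batch or slide in the fit, other base or late times, 75th percentile scaling, 3-fold in place of 2-fold, and leaving out lines. Leaving out the 4 arrays that stood apart and fitting HEY2 on 3 lines were chosen after seeing the data. Figures and other calculations used Python 3.11.15, numpy 2.4.6, pandas 2.3.3 and matplotlib 3.10.9.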

Additional observations from a re-analysis of the deposited data

Results flagged for a closer look

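In 3 of 50 sets of values tested, 1 array lay apart from the others of its set by Dixon's criterion, which chance does in about 1 in 20 sets. The vehicle level of HEY1 in HCC1954 was 7.22 at 3 h against 7.40 to 7.47 on the other 5 arrays. That of JAG2 in HCC1954 was 10.51 at 12 h against 9.77 to 9.97. That of JAG1 in T-47D was 2.25 at 24 h against 4.16 to 4.93, on an array whose vehicle channel was among the least like its line.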

How the results depend on the processing

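No further paired analysis was possible because each line and time point had 1 array. The pairing of BMP7 and vehicle within each array and the line as a block are already used in the tests. No member was called in the mean log2 ratio, but 1 (JAG2) was with the 30 arrays fitted with cell line as a random block, where 7.26% of all probes were called, and 2 (HES1 and JAG2) were with normexp and median scaling, where 3120 of 3146 called probes were up. In the change to 3 to 24 h, the 1 member called (JAG2) became 0 with 30 min alone as base, within the first scan batch, with normexp and either loess or median scaling, with the scan batch as a term, with slide as a random block, and without the 3 h, 6 h, 12 h or 24 h arrays, and became 2 (JAG2 and HES4) with at least 1 or both channels well above background and without the 3 arrays whose vehicle channel stood apart. Leaving out 1 line gave 0 to 1. The 1002 probes called in all became 2 to 1954 over these settings, with 4 without T-47D, 3 without ZR-75-30, 4 without 12 h and 11 without 6 h. The 4 events became 1 at 3-fold, with both channels well above background, with normexp and loess, or without the 3 arrays, and 8 with normexp and median scaling. Leaving out 1 line gave 1 (without T-47D) to 4. Differences between lines in the change (0) and in the vehicle level (9, with 6 to 9) stayed within 1.5 times.

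Some small values changed sign. The mean log2 ratio of HES4 was 0.057 over 3 to 24 h alone, 0.14 with normexp and median scaling and -0.071 to 0.0054 without 1 line. That of HEY2 was 0.0072 with normexp and loess, 0.029 in the authors' value table, 0.016 without the ZR-75-30 array at 6 h and -0.047 to 0.031 without 1 line. That of JAG1 was -0.047 over 3 to 24 h alone, -0.047 and -0.039 with at least 1 or both channels well above background, -0.0079 with normexp and loess, -0.00089 in the value table, -0.0070 without the 3 arrays and -0.039 to 0.080 without 1 line. That of NOTCH2 was 0.26 with normexp and median scaling and -0.059 to 0.033 without 1 line. The change to 3 to 24 h was 0.014 for HES1 with 30 min as base, -0.17 to 0.090 for HEY2 without 1 line, and for NOTCH3 -0.056 with 30 min as base, -0.15 with at least 1 channel well above background, -0.00032 without 6 h and -0.059 to 0.11 without 1 line. The change of the second HEY2 probe in ZR-75-30 was 0.0088 with normexp and loess, 0.12 with normexp and median scaling and 0.16 without the 6 h array. The cause was not tested. Of the other values of single genes, 559 kept their side of the threshold, 64 lost it and 12 gained it. Signal over background limits NOTCH3, HEY2 in 2 lines and JAG1 in T-47D.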
